A study of Mus musculus with 91 samples.

Results

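The genes for the C/EBP transcription factors Cebpa, Cebpb, Cebpd and Cebpg and for the nuclear receptor Pparg were followed through single stromal cells of mouse bone marrow. They were chosen by name, as 5 of the 16580 genes in the count table, and all 5 were in the table and passed the filter on low counts. The cells were 91 C57BL/6 bone marrow cells, each made into its own library by Smart-seq2, a full-length method. Marrow was set free by crushing bones, and cells were sorted that took up a dye and carried VCAM1, a stromal adhesion molecule, and lacked the blood lineage proteins CD45, Ter119, CD41 and CD71. The CD61+ gate (39 cells; plates of 17 and 22) and the CD61- gate (40 cells; plates of 24 and 16) split these cells on CD61, the integrin beta 3 chain. A gate not split on CD61, called VCAM1+, held 9 cells. Animal age and sex are not in the labels, and the purpose of the split is not stated there.

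No animal is named and cells are not replicates, so each gate counts as 1 sample. No test was run, and intervals of levels and ratios are exact 95% intervals for counting error only. Intervals of shares take cells as independent draws, which is not known here, and they do not compare the gates. No plate mixed the gates, and an effect of the plate cannot be told apart from one of the gate. Libraries held between 507713 and 6702475 counts, the medians being 1887613 in CD61+, 2368345 in CD61- and 4004927 in VCAM1+ cells. Levels are CPM (counts scaled to a fixed library total), either of 1 cell or of the summed counts of a gate or plate. In a sum, fewer cells with a transcript and less of it per cell cannot be told apart, so the cells are given as well. The gene of the sorted protein, Vcam1, was counted in 36 of 39 CD61+ and 39 of 40 CD61- cells. Ptprc, which encodes the excluded CD45, was counted in 6 and 5 cells, at 0.117 and 12.1 CPM in sum. A further 3 cells, titled CD61minus but labelled with the CD61+ gate, were left out of every comparison.

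C/EBP proteins are leucine zipper factors that bind DNA as dimers, and PPARG is a receptor that binds DNA with an RXR partner. In fat cell precursors in culture, Cebpb and Cebpd are induced early and act on Cebpa and Pparg, which then maintain each other and switch on genes such as Adipoq and Lpl. In marrow, CXCL12-abundant reticular (CAR) cells, which keep blood stem cells in their niche, are known to transcribe adipocyte genes while remaining stromal cells. Cebpb and Cebpd are also known as inflammatory and immediate response genes, which is why Fos was read beside them. Cebpg lacks a strong activation domain and acts as a dimer partner.

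On build mm10 with GENCODE vM21, Cebpa lies at chr7:35119293-35121928 on the plus strand, Cebpb at chr2:167688915-167690418 on the plus strand and Cebpd at chr16:15887286-15891031 on the plus strand, each in 1 exon. Cebpg lies at chr7:35046422-35056573 on the minus strand and Pparg at chr6:115360951-115490399 on the plus strand. The 250 bases before a start are shown from RefSeq (GRCm38.p6) for the members whose cell-to-cell patterns are compared below. RefSeq's promoter table matched 4 of the 5 members, with 1 start each for Cebpa, Cebpb and Cebpg and 3 for Pparg. Of the Pparg windows the one that held a motif, window 3, is shown. Capitals mark, on either strand, the C/EBP core TTGCNNAA, the CRE half-site TGACG (part of the site of cAMP response factors), the AP-1 site TGANTCA (the site of Fos and Jun proteins) and the PPAR response element, a repeat of nuclear receptor half-sites.

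Cebpb, chr2:167688665-167688914, plus strand: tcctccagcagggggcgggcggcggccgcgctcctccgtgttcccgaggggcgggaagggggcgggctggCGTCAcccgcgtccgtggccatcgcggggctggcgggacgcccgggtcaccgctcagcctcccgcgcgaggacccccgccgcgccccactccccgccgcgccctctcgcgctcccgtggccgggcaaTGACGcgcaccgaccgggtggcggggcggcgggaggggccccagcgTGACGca
Cebpa, chr7:35119043-35119292, plus strand: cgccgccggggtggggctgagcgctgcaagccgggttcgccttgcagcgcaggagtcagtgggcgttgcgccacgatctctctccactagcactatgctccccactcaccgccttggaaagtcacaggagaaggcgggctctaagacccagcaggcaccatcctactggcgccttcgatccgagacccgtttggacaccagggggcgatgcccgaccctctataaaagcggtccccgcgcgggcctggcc
Pparg, window 3, chr6:115421816-115422065, plus strand: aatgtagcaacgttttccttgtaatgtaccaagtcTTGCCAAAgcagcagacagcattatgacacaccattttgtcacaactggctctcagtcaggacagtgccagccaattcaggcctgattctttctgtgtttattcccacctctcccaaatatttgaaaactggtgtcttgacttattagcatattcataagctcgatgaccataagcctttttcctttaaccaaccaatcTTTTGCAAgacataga

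The Cebpb window held 3 CRE half-sites, where 17.8% of 32851 windows of this length held at least 1. The share of windows with 3 was not counted. This window was 81.6% G and C, and the windows were not matched for base content. Window 3 of Pparg held 2 C/EBP cores, where 9.56% of windows held at least 1. None of the 4 motifs was found in the Cebpa and Cebpg windows or at the other Pparg starts. AP-1 sites were in 6.75% and PPAR response elements in 0.0335% of all windows. These are matches of letters in a short window. The counts are per gene and do not separate the Pparg starts.

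Of the 5 members 3 were lower in CD61+ than in CD61- cells by over 2-fold in summed CPM, namely Cebpb, Cebpd and Cebpg, and 0 were higher. Among all 14063 genes tested 17.3% were 2-fold lower and 19.4% 2-fold higher. For the same 3 members both CD61+ plates lay below both CD61- plates, as they did for 17.8% of all genes, and 10.6% of genes met both conditions.

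Cebpb, the early C/EBP factor, was the member that differed most between the gates. In CD61+ cells it ran from 0 (lowest and median) to 74.9 CPM, and in CD61- cells from 0 through a median of 20.4 to 1865 CPM. Of the CD61- cells 14 of 40 reached 100 CPM, and of the CD61+ cells 0 of 39 did. Summed, Cebpb was at 2.61 and 4.36 CPM in the CD61+ plates and at 90.7 and 325 CPM in the CD61- plates, so the plates did not overlap. The gate sums were 3.47 CPM (3.06 to 3.91; 266 counts) and 191 CPM (188 to 193; 17504 counts). This was 54.9-fold lower in CD61+ cells (48.7 to 62.2). CD61- cell 37 alone gave 36.5% of the CD61- counts, and without it the fold was 36.2. Leaving out CD61+ cell 31 gave 72.0-fold. Of all 14063 genes tested, 0.356% had a lower ratio of CD61+ to CD61-.

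The share of cells with a Cebpb count differed too, at 14 of 39 CD61+ cells (35.9%, 21.2 to 52.8) and 32 of 40 CD61- cells (80.0%, 64.3 to 91.0; Clopper-Pearson). With every cell thinned to 1067557 counts, which left out 6 CD61+ and 3 CD61- cells, the shares were 10 of 33 and 28 of 37. Ptprc, a gene that the sort should exclude, had a count in 6 of 39 and 5 of 40 cells, at 0.117 and 12.1 CPM in sum. A limit of the Cebpb counts is Tmem189, on the other strand, which shares 312 exonic bases with Cebpb; the strand of the libraries is not stated. Tmem189 was at 27.7 CPM in CD61+ and 41.1 CPM in CD61- cells, and its plates overlapped.

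Cebpd, the other early factor, was also lower in CD61+ cells, by a smaller amount. It ran from 0 through a median of 56.4 to 828 CPM in CD61+ cells and from 0 through 131 to 2037 CPM in CD61- cells. The plates stood at 169 and 75.5 CPM in CD61+ and 332 and 426 CPM in CD61-, with no overlap. The summed difference was 3.02-fold (2.95 to 3.09), from 123 to 372 CPM. Most cells of both gates carried Cebpd, 29 of 39 and 33 of 40, so the gates differed more in level than in share. The highest cells were CD61- cell 15 at 2037, CD61- cell 34 at 1666 and CD61- cell 12 at 1543 CPM, and together the 3 gave 53.0% of the CD61- counts. Spidr, a gene on the other strand that shares 562 exonic bases with Cebpd, was at 7.71 CPM in CD61+ and 3.36 CPM in CD61- cells, with overlapping plates.

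Cebpg, the dimer partner, was 2.71-fold lower in CD61+ cells (2.61 to 2.81), at 46.4 against 126 CPM. Its plates were at 60.5 and 31.8 CPM in CD61+ and at 121 and 132 CPM in CD61-, again without overlap. The median was 0.392 CPM in CD61+ and 1.09 CPM in CD61- cells, far below the sums, and the highest cells reached 348 and 531 CPM. It was counted in 20 of 39 cells (34.8 to 67.6%) in CD61+ and in 25 of 40 cells (45.8 to 77.3%) in CD61-.

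Cebpa, the late C/EBP factor, did not separate the gates. It ran from 0 through 43.3 to 545 CPM in CD61+ cells and from 0 through 102 to 424 CPM in CD61- cells. The CD61+ plates stood at 128 and 54.3 CPM and the CD61- plates at 118 and 137 CPM, so that 1 CD61+ plate lay between the CD61- plates and the other below them. The summed ratio was -0.46 on the log2 scale (-0.50 to -0.42), and the ratios of single plate pairs ran from -1.34 to 0.11, on both sides of 0. The shares of cells with a count were nearly the same, 25 of 39 (64.1%) and 26 of 40 (65.0%).

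Pparg had nearly the same summed level in the 2 gates, 129 and 132 CPM, but the sum of CD61+ cells came largely from 1 cell. CD61+ cell 33 held 1609 CPM, 56.0% of all Pparg counts of its gate; the next CD61+ cell held 586 CPM. Medians were 0 in CD61+ and 44.8 CPM in CD61- cells, and the highest CD61- cell held 528 CPM. With all cells the log2 ratio was -0.03 (-0.07 to 0.00) and the plates overlapped, at 185 and 71.8 CPM in CD61+ and 103 and 171 CPM in CD61-. Without CD61+ cell 33 Pparg was 2.22-fold lower in CD61+ cells. The share of cells with a count did not depend on this cell: 13 of 39 (33.3%, 19.1 to 50.2) in CD61+ and 26 of 40 (65.0%, 48.3 to 79.4) in CD61-, or 9 of 33 and 25 of 37 after thinning.

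That cell was unlike the other high cells. CD61+ cell 33 had counts of 12 of 12 endothelial marker genes, 11454 CPM in sum, with no count of Adipoq, Cebpa or Cebpb. CD61- cell 38, the highest Pparg cell of its gate, had 11 of 12 endothelial markers at 14042 CPM and no Adipoq, Lpl or Cebpa count. The 2 cells differed in that CD61+ cell 33 held 153 CPM of Lpl and CD61- cell 38 held 271.5 CPM of Cebpb. In contrast CD61+ cell 13 (586 CPM) and VCAM1+ cell 7 (715 CPM) had 1 and 0 endothelial markers counted, and CAR marker sums of 26423 and 59682 CPM. The 4 cells highest in Pparg were thus 2 with endothelial markers and 2 with CAR markers.

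**Figure D1:**
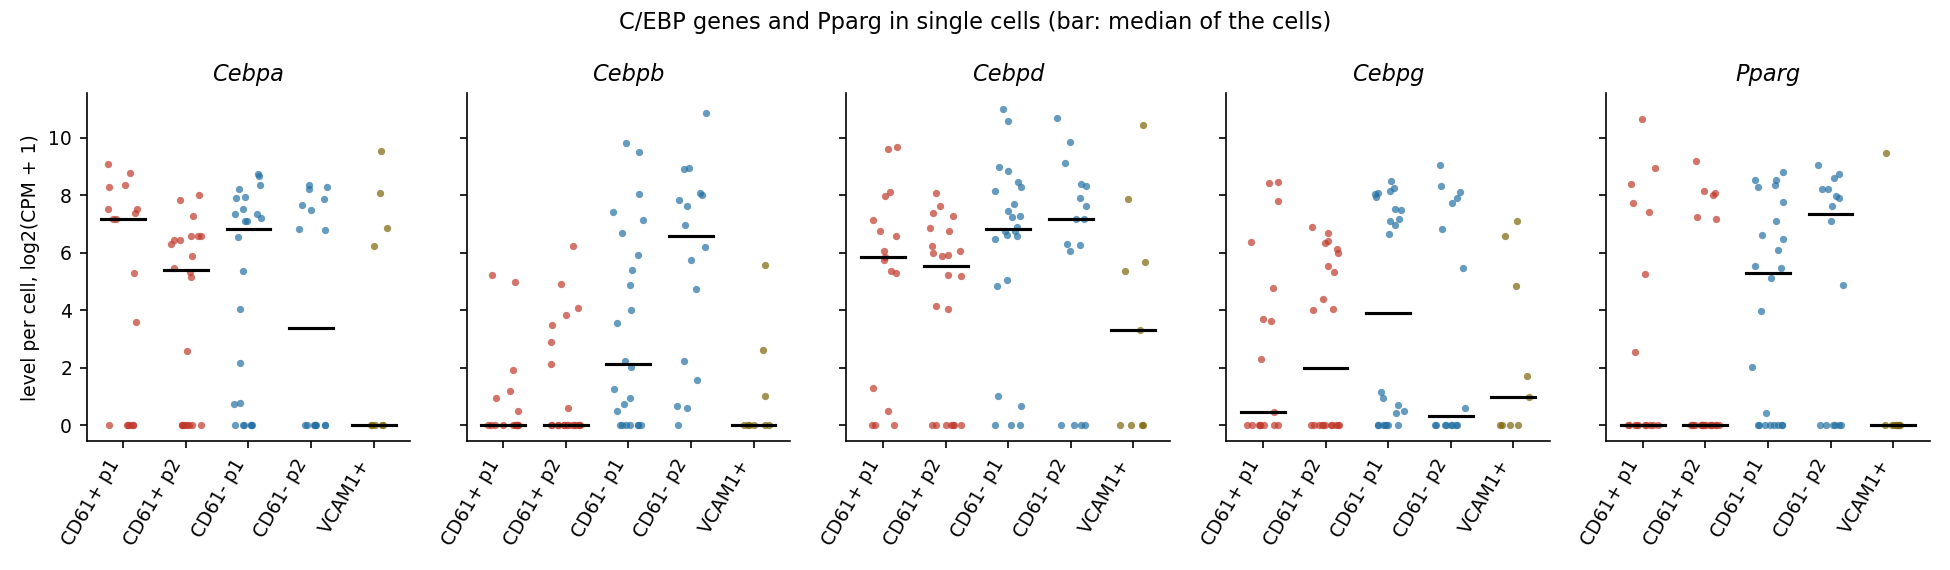
Level of each member in every cell as log2(CPM + 1) (vertical axis) by plate of the CD61+ (red) and CD61- gate (blue) and in the VCAM1+ gate (brown); black bars are medians over cells. Cebpb is near 0 in most CD61+ cells, with a highest value of 74.9 CPM, and spreads up to 1865 CPM in CD61- cells, while Cebpa covers a similar range in both.

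**Figure D2:**
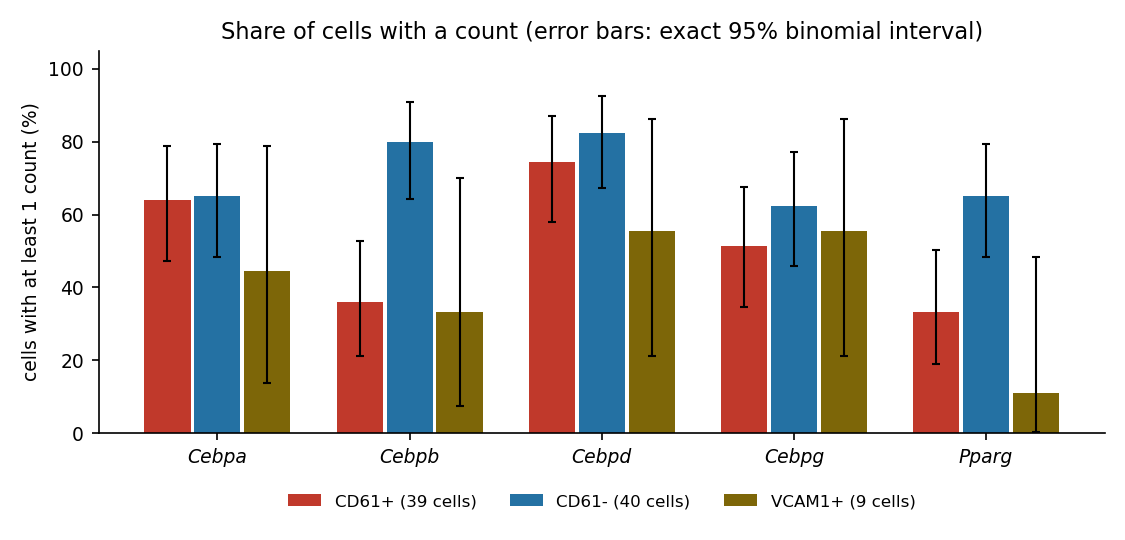
Percent of cells with at least 1 count of each member in the CD61+ (39), CD61- (40) and VCAM1+ (9) cells. Error bars are exact 95% binomial intervals that take cells as independent draws, and they do not compare the gates. The shares in CD61+ and CD61- are 35.9% and 80.0% for Cebpb and 33.3% and 65.0% for Pparg, and lie closer together for Cebpa, Cebpd and Cebpg.

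Divided by exonic length, the order of the members also differed between the gates. In CD61- cells the summed levels per kilobase were 127 for Cebpb, 99.3 for Cebpd, 48.0 for Cebpa, 44.8 for Pparg and 22.4 CPM for Cebpg. Cebpb plates, at 60.3 and 216 CPM per kilobase, enclosed those of Cebpd, and plates of Cebpa and Pparg overlapped, so these neighbours did not differ beyond the plates. Cebpd (88.6 and 114) lay above Cebpa (44.9 and 52.1) on both plates, and Cebpg was below the others on both plates. In CD61+ cells the order was Pparg at 43.8, Cebpa at 34.9, Cebpd at 32.9, Cebpg at 8.26 and Cebpb at 2.31 CPM per kilobase. There the plates of the first 3 overlapped, and Cebpb was the lowest on both plates. VCAM1+ cells gave 51.1 for Cebpd, 36.3 for Cebpa, 14.3 for Pparg, 7.72 for Cebpg and 4.21 CPM per kilobase for Cebpb. This order rests on single cells: without the highest cell of each gene, the summed level was 34.7 in place of 192 CPM for Cebpd, 54.6 in place of 95.7 for Cebpa, 0 in place of 42.2 for Pparg, 20.9 in place of 43.4 for Cebpg and 1.11 in place of 6.33 for Cebpb.

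The members were also counted cell by cell. The mean number of members counted per cell was 2.59 of 5 in CD61+ and 3.55 of 5 in CD61- cells. All 5 were counted in 2 of 39 and in 10 of 40 cells, and none in 2 cells of each gate. Cebpa and Pparg, the late pair, were both counted in 12 CD61+ cells, while Pparg without Cebpa was counted in 1, which was cell 33. In CD61- cells Pparg without Cebpa was counted in 8 cells and both genes in 18. Cebpg showed almost no rank correlation with Cebpa (0.07) or Pparg (-0.01) over the 88 cells with an assigned gate.

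The 88 cells were grouped into 6 clusters without using the members, their partner genes or the adipogenic, acute phase and immediate early lists. Names rest on marker lists and on the leading genes of each cluster, for which no gene was left out. The CAR list holds Adipoq, Lpl and Cxcl12, so the names are not independent of the partner genes. Adipoq was among the leading genes of clusters 1, 3 and 6. Clusters 1, 3 and 6 (28, 14 and 8 cells) were CAR-like, clusters 2 and 4 (16 and 13 cells) osteolineage-like and cluster 5 (9 cells) endothelial-like. Cluster 3 had the lowest depth, with a median of 1121399 counts. Cluster 4 also carried CAR markers, with a mean over that list of 7.47 on the log2(CPM + 1) scale, beside 7.21 for osteolineage genes. Cluster 5 was mixed: Ly6a and Cd34, which mark fibroblasts as well as vessels, also led it, and Cdh5, the endothelial cadherin, was counted in 4 of its 9 cells. Wells holding 2 cells were not looked for.

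Pparg and Cebpa differed widely between clusters. In cluster 2, led by bone matrix genes such as Spp1, Bglap and Col1a1, Pparg had no count in any of 16 cells (upper limit 0.0849 CPM summed; 20.6% of cells). In the CAR-like cells Pparg was counted in 33 of 50 cells and reached 156 CPM in sum. Cluster 4 lay between cluster 2 and this pooled level, at 51.7 CPM and 5 of 13 cells. CAR-like cluster 3 stood at the level of cluster 4, with 51.8 CPM and 5 of 14 cells. Clusters 1 and 6 were at 184 and 172 CPM. Cebpa was at 11.5 CPM in cluster 2 (5 of 16 cells), but at 139 CPM in cluster 4 (11 of 13 cells), close to the 167 CPM of the CAR-like cells (38 of 50 cells).

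Cebpb followed the same order, with 0.875 CPM in cluster 2, 36.8 CPM in cluster 4 and 163 CPM in the pooled CAR-like cells. CAR-like cluster 3 alone was at 12.2 CPM, below cluster 4, and clusters 1 and 6 were at 138.5 and 346 CPM. The shares of cells with Cebpd and Cebpg differed less between cluster 2, cluster 4 and the pooled CAR-like cells. Cebpd was counted in 12 of 16 cells of cluster 2, 11 of 13 of cluster 4 and 38 of 50 CAR-like cells, at 80.9, 148 and 409 CPM. Cebpg was counted in 10 of 16, 9 of 13 and 25 of 50 cells, at 50.0, 107 and 95.2 CPM. The CAR-like clusters were not alike. In the shallow cluster 3 Cebpg was counted in 3 of 14 cells, at 1.22 CPM, and Cebpd in 6 of 14. In clusters 1 and 6 Cebpg was at 108 and 140 CPM. In the endothelial-like cluster Cebpa was counted in 1 of 9 cells, at 115 CPM, in a cell with 8161 CPM of the fibroblast gene Dcn and no Cdh5 count.

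**Figure D3:**
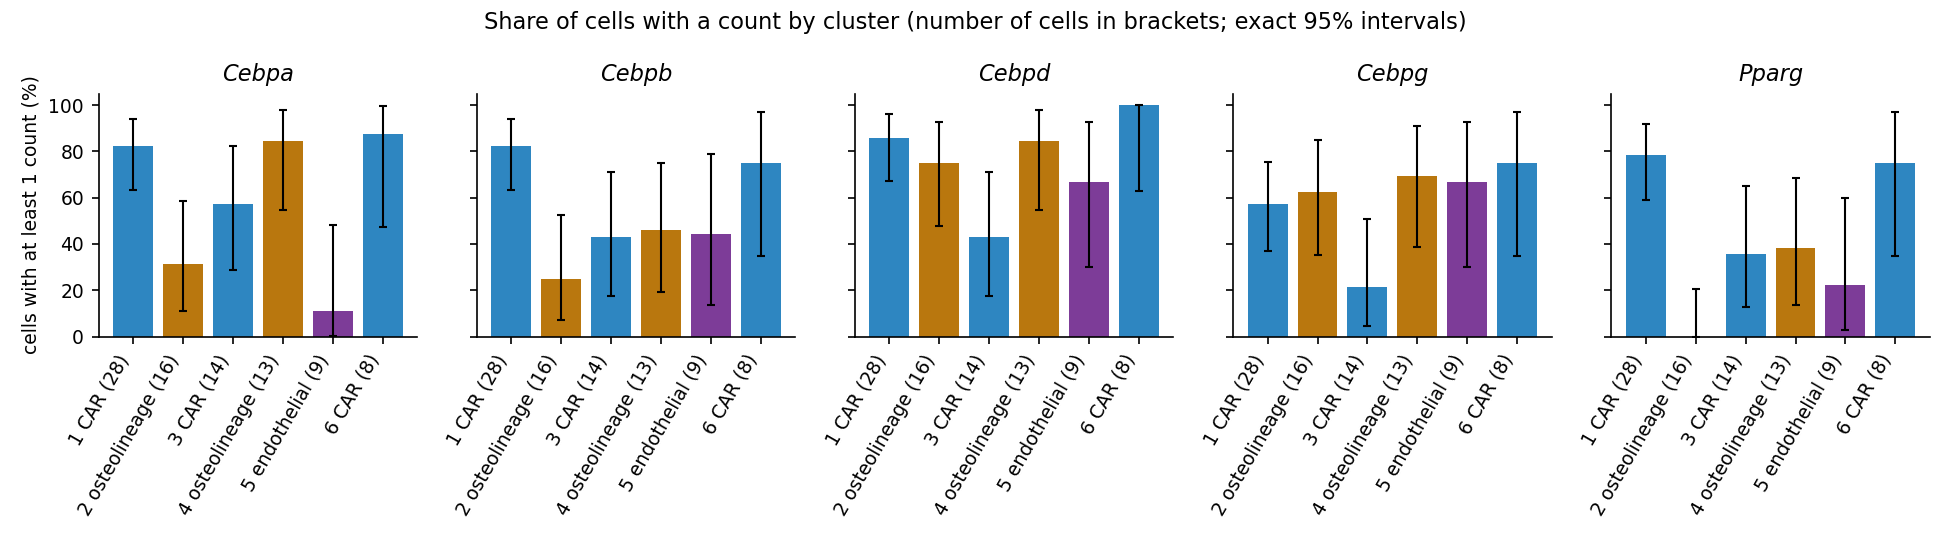
Percent of cells with at least 1 count of each member (vertical axis) in the 6 clusters, with the number of cells in brackets. Error bars are exact 95% binomial intervals that take cells as independent draws, and colours give the cluster names. Pparg is at 0% in the 16 cells of osteolineage-like cluster 2, whereas Cebpd and Cebpg are counted in 75.0% and 62.5% of the same cells.

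The gates held different mixes of these clusters: 15 of the CD61+ and 31 of the CD61- cells were CAR-like, and 21 and 7 were osteolineage-like. A comparison within the CAR-like cells was therefore added after the values had been seen. Cebpb stayed far apart there, at 6.29 CPM in CD61+ (3.02 and 9.28 in the plates) and 234 CPM in CD61- cells (112 and 405), a 37.3-fold difference (31.7 to 44.1). Without CD61- cell 37 it was 23.7-fold. The median cell held 0.917 and 28.5 CPM, although 10 of 15 and 24 of 31 cells had a count. CAR-like CD61+ cells came from clusters 1, 3 and 6 in numbers of 5, 6 and 4, and CD61- cells in numbers of 22, 5 and 4. Within cluster 1 alone Cebpb was at 9.11 and 166 CPM, with medians over cells of 2.84 and 47.4 CPM. Within cluster 6 it was at 5.63 and 567 CPM, with medians of 3.48 and 228 CPM. That last sum rests on 4 cells, of which CD61- cell 37 gave 6388 of 8082 counts. In the shallow cluster 3 it was at 3.66 and 3.4 CPM.

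Cebpd was 3.45-fold lower in CD61+ than in CD61- cells within the CAR-like cells, at 135 and 465 CPM; without CD61+ cell 24 this was 7.74-fold. Cebpg was 2.13-fold lower there, at 56.3 and 120 CPM, moving from 1.83-fold without CD61- cell 32 to 5.42-fold without CD61+ cell 34. Within cluster 1, the CAR-like cluster with most cells, Cebpg was at 107 CPM in CD61+ (1 of 5 cells counted) and 112 CPM in CD61- cells (14 of 22), so the sums hardly differed there; within cluster 6 it was at 49.2 and 199 CPM. CD61- cell 32 gave 1457 of the 2837 CD61- counts of Cebpg in cluster 6. Cebpd was at 262 and 427 CPM within cluster 1 and at 83.5 and 753 CPM within cluster 6. In cluster 1 CD61+ cell 24 gave 1895 of the 2101 CD61+ counts of Cebpd. In cluster 6 CD61- cell 34 gave 8316 of the 10735 CD61- counts of Cebpd, and the medians over cells were 85.5 and 353 CPM. In all CAR-like cells together Cebpa was at 177 CPM in CD61+ and 145 CPM in CD61- cells, and Pparg at 160 and 153 CPM. The log2 ratio of Cebpa was 0.29, and -0.11 without CD61+ cell 34. That of Pparg was 0.064, and -0.28 without CD61+ cell 13, and its plates overlapped, at 94.3 and 220 CPM in CD61+ and 136 and 177 CPM in CD61-. The share of CAR-like cells with a Pparg count was 10 of 15 in CD61+ (38.4 to 88.2%) and 22 of 31 in CD61- (52.0 to 85.8%). Leaving out only the endothelial-like cluster gave a Pparg difference of 2.07-fold, at 62.3 and 129 CPM, with both CD61+ plates (48.3 and 75.7 CPM) below both CD61- plates (107 and 158 CPM). In the osteolineage-like cells Cebpb was at 2.54 CPM in 21 CD61+ and 49.5 CPM in 7 CD61- cells. Of those, 13 and 2 were of cluster 2, and 8 and 5 of cluster 4. Within cluster 2 Cebpb was at 0.986 and 1.21 CPM, near the same level, and within cluster 4 at 6.12 and 65.3 CPM. The medians over cells in cluster 4 were 0 and 0.690 CPM. Its CD61- sum came from CD61- cells 31 and 8, at 228 and 102.5 CPM, and its other CD61- cells were below 1 CPM.

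The wider gene families were read in the same way. A gene was called lower or higher in CD61+ cells past the same 2-fold ratio, with the shares of all genes given above. Both CD61+ plates lay above both CD61- plates for 20% of all genes. The median of all genes was 0.01 on the log2 scale, and medians of lists below are on that scale, CD61+ over CD61-. Among C/EBP and related leucine zipper genes, members included, 6 of 11 were 2-fold lower and 0 higher, and for 5 of them the plates did not overlap. The 6 include the members Cebpb, Cebpd and Cebpg reported above, beside Ddit3, Nfil3 and Tef. The median of -1.44 is the value of Cebpg itself, so the list is not separate from the members. Of the genes that are not members, Atf4, Atf5, Dbp and Hlf lay between -0.16 and 0.26. Ddit3, a stress-induced C/EBP protein that blocks other C/EBPs, was 3.33-fold lower, from 89.6 CPM in CD61- cells. Nfil3, a repressor of this class, was at 21.6 and 93.2 CPM. Atf4, a partner of Cebpg in the amino acid stress response, was at 152 and 170 CPM.

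The PPAR and RXR genes with their cofactors went both ways, 3 lower and 3 higher of 12, with a median of 0.09. Ncoa1, a coactivator of nuclear receptors, was at 64.0 CPM in CD61+ and 6.20 CPM in CD61- cells, and Rxra, a partner of PPARG, at 12.2 and 3.38 CPM. Nr1h3, the liver X receptor gene, was at 6.56 and 32.4 CPM. Rxrb (45.1 and 41.4 CPM) and Ncor1, a corepressor (228 and 219 CPM), were near 1.

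Other adipogenic transcription factors were lower for 7 of 18 genes and higher for 2, with a median of -0.63. Ebf1, an early B cell factor also found in fat and stroma, was at 149 and 307 CPM, and Ebf3, a factor that CAR cells need, at 47.8 and 98.2 CPM. Klf9 and Nfia were at 46.9 and 109 CPM and at 39.0 and 104 CPM. Zfp467 (54.6 and 19.9 CPM) and Srebf1, a regulator of lipid synthesis (34.7 and 14.9 CPM), were the 2 higher ones. Inhibitors of adipogenesis were lower for 4 of 13 genes and higher for 0, with a median of -0.74. The most abundant of them, Id3, was at 2903 and 4053 CPM with overlapping plates.

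Adipocyte target genes were lower for 9 of 20 genes and higher for 4, with a median of -0.38. Adipoq (adiponectin) was at 1216 CPM in CD61+ and 2504 CPM in CD61- cells, Lpl (lipoprotein lipase) at 964 and 3628 CPM, and Apoe (a lipid carrier) at 2215 and 4630 CPM. Agpat2, an enzyme of triglyceride synthesis, was at 32.7 and 143 CPM. Of the genes for lipid droplet coat proteins, Plin1 was at 0.913 and 0.708 CPM and Plin2 at 59.2 and 61.3 CPM, with overlapping plates for both. Fabp4, a fatty acid carrier found in fat cells and capillaries, was higher in CD61+ cells, at 695 and 158 CPM, but was counted in 3 and 6 cells and its plates overlapped.

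Inflammatory and acute phase targets of C/EBP factors were lower for 10 of 14 genes and higher for 1, with a median of -1.62. Saa3, an acute phase protein, was at 86.5 CPM in CD61+ and 1022 CPM in CD61- cells. Hp (haptoglobin) was at 1823 and 5462 CPM and Il1rn (the interleukin 1 receptor antagonist) at 175 and 628 CPM. Plates did not overlap for these 3. Immediate early genes were lower for 10 of 20 genes and higher for 2, with a median of -1.06; Fos was at 3087 and 6930 CPM and Junb at 815 and 1780 CPM. CAR markers were lower for 9 of 17 and osteolineage markers higher for 8 of 17 and lower for 1, with medians of -1.02 and 0.95. These marker sums moved with the same split. All 17 CAR markers were counted in both gates, and their sum per cell ran from 179 to 63491 CPM in CD61+ and from 670 to 74443 CPM in CD61- cells, with medians of 24286 and 45553 CPM. The 17 osteolineage markers summed to 97303 and 26670 CPM over the gates. Endothelial genes summed to 989 and 217 CPM, fibroblast genes to 3955 and 473, myeloid genes to 678 and 250, and erythroid genes to 392 and 156 CPM. Medians over cells were 0.514 and 0.361 for endothelial, 828 and 255 for fibroblast, 3.67 and 0.146 for myeloid and 0 and 0 CPM for erythroid genes. The highest CD61+ cell held 91317 CPM of fibroblast genes. In CD61+ cells the myeloid sum was mostly Fcer1g, at 632 CPM against 98.3 CPM in CD61- cells, and the other myeloid genes went both ways. The part of these markers in the list counts was not tested.

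Each member was then set against Adipoq, Lpl, Fos and Cxcl12 (the chemokine that defines CAR cells) in the same cell. Values are Spearman's rho of log2(CPM + 1) over 88 cells, which share plates, gates and library depth, and a rho of at least 0.4 in size is called a relation. Pparg was related to Lpl (0.53), Adipoq (0.50) and Cxcl12 (0.49) and not to Fos (0.00). Cebpa gave a like pattern, with 0.53 for Cxcl12, 0.47 for Lpl, 0.44 for Adipoq and 0.07 for Fos. Cebpd was related to Fos (0.48) and Lpl (0.45), but its value with Lpl was 0.24 within CD61+ and 0.33 within CD61- cells, below 0.4 in both. Cebpb was related to Lpl (0.51) and Cxcl12 (0.42), with 0.39 for Adipoq and 0.32 for Fos. Its values with Lpl and Cxcl12 were 0.53 and 0.43 within CD61+ cells, and 0.38 and 0.24 within CD61- cells. Cebpg was related to none of the 4, with values from -0.11 to 0.24.

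**Figure D4:**
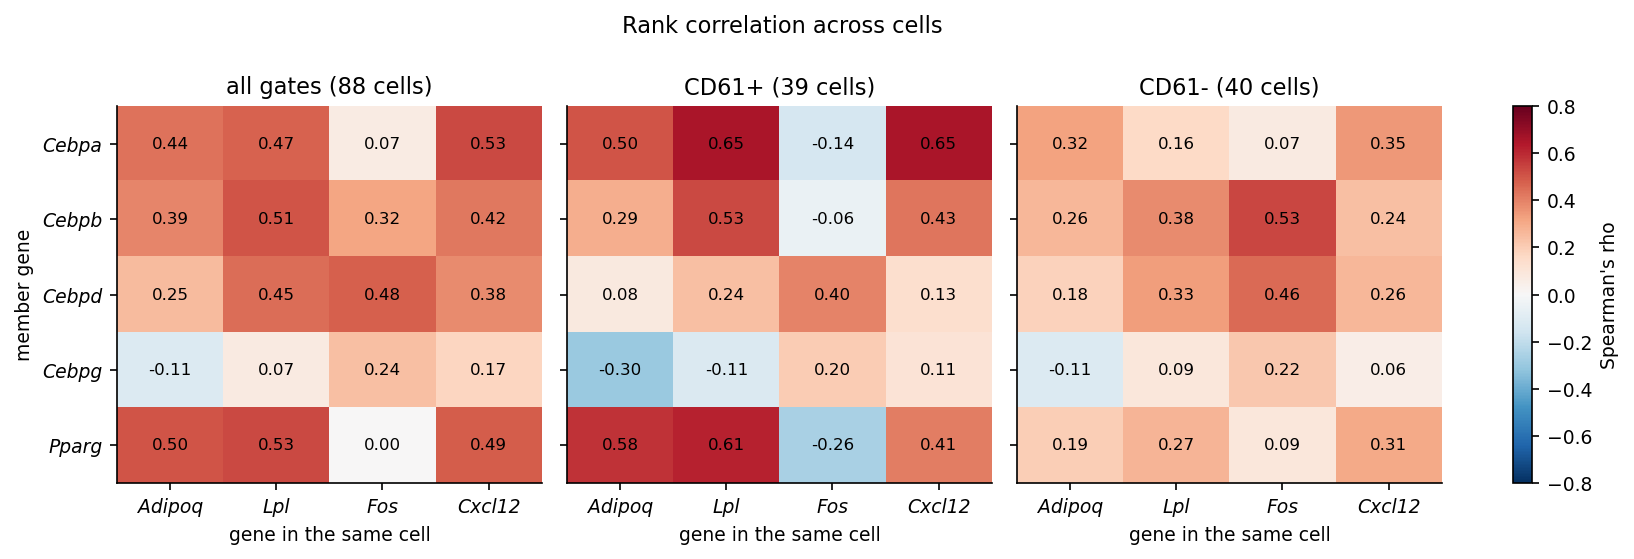
Spearman's rho between each member (rows) and 4 genes of the same cell (columns) over all assigned cells (88) and within the CD61+ (39) and CD61- (40) gates; colour runs from blue (negative) to red (positive). In CD61+ cells Lpl has 0.65 with Cebpa and 0.61 with Pparg, against 0.16 and 0.27 in CD61- cells, while Cebpd has 0.397 and 0.456 with Fos in the 2 gates.

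The Pparg and Cebpa relations were mostly between cells with and without a count. Adipoq was counted in 36 of 40 cells with a Pparg count and in 21 of 48 without one. Median Cxcl12 was 25173 CPM with a Pparg count and 525 CPM without. Among the 36 cells with counts of both Pparg and Adipoq the rho was -0.06, and among the 40 with Pparg and Cxcl12 it was -0.12. The relation of Pparg to Lpl was 0.61 in CD61+ and 0.27 in CD61- cells, and that of Cebpa to Lpl 0.65 and 0.16. In the same order Pparg had 0.58 and 0.19 with Adipoq and 0.41 and 0.31 with Cxcl12. Cebpa had 0.50 and 0.32 with Adipoq and 0.65 and 0.35 with Cxcl12. Within CD61- cells the called relations of both genes were thus all below 0.4. The difference between the gates was not tested. Of the mean levels of marker lists, that of the CAR genes had a rho of 0.60 with Cebpa and 0.57 with Pparg, and that of the osteolineage genes 0.01 and -0.25. The CAR list includes Adipoq, Lpl and Cxcl12, so its mean is not separate from the relations above.

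Cebpd and Fos had a rho of 0.397 in CD61+ cells, just below 0.4, of 0.456 in CD61- cells, and of 0.28 to 0.59 within the 4 plates. Median Fos was 2349 CPM in the 67 cells with a Cebpd count and 36.8 CPM in the 21 without one. Cebpd had a rho of 0.50 with the mean of the immediate early genes, a list that includes Fos, and of 0.33 with the total count of the cell. Cebpb and Fos had a rho of 0.53 in CD61- and -0.06 in CD61+ cells, where Cebpb was near 0. CD61- cells 37 and 22, the highest assigned Cebpb cells, held 16192 and 17274 CPM of Fos.

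**Figure D5:**
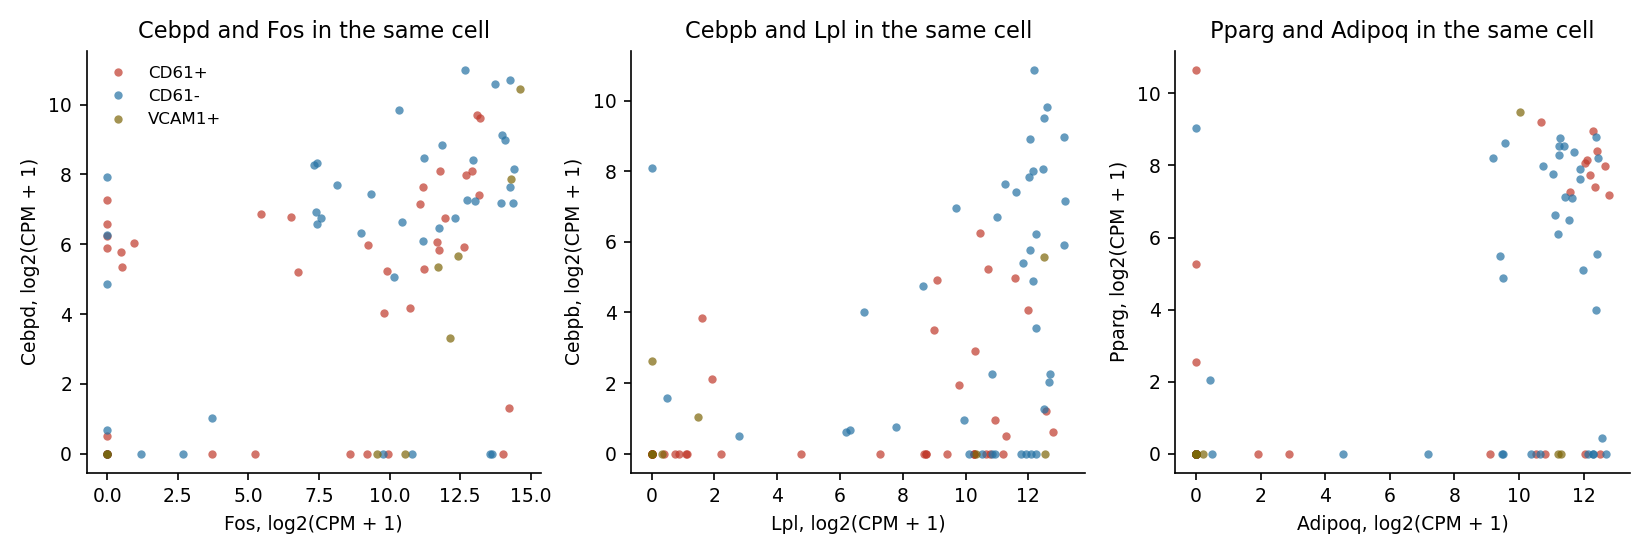
Cebpd against Fos, Cebpb against Lpl and Pparg against Adipoq in the same cell, all as log2(CPM + 1); each point is 1 of the 88 assigned cells, coloured by gate. Of the 40 cells with Pparg 36 also have Adipoq; those without it include CD61+ cell 33 at 1609 CPM and CD61- cell 38 at 528 CPM.

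To ask which genes were most like each member, rho was averaged over the 4 plates of the 2 gates (79 cells) and 7978 genes were ranked. For Cebpb the first gene was Lpl, at 0.54 (0.45 to 0.68 over plates), then Nnmt at 0.51, Olfr676 at 0.49 and Grip2 at 0.48. For Cebpa they were Ackr4, an atypical chemokine receptor, at 0.66, the CAR factor Ebf3 at 0.63, Igfbp4 at 0.61 and Id4 at 0.60. For Pparg they were Crim1 at 0.59, Mgst1 at 0.53, Dock8 at 0.51 and Afap1l2 at 0.51. For Cebpd they were Rnf11 at 0.52, Tmem91 at 0.48 and Fosb (a sister gene of Fos) at 0.47, with Fos itself at rank 7. For Cebpg they were Slc25a11 at 0.47, Zbtb26 at 0.46, Chmp1a at 0.45 and Nap1l4 at 0.45. Such first ranks among many sparse genes are a description of these cells.

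Of the proteins read at the sort, CD61 fluorescence had a rho of -0.48 with Cebpb over 88 cells, and -0.22 and -0.33 within the CD61+ and CD61- gates. CD200 had -0.40 with Pparg over all cells, -0.59 in CD61+ and -0.19 in CD61- cells. VCAM1 fluorescence was not related to any member over the 88 cells, with values from -0.07 to 0.17. Cebpg had its largest value with the total count, 0.36.

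In the VCAM1+ gate the members were carried by few cells. Cebpa was counted in 4, Cebpb in 3, Cebpd in 5, Cebpg in 5 and Pparg in 1 of 9 cells. VCAM1+ cell 7 held 751 CPM of Cebpa and 715 CPM of Pparg, with 32107 CPM of Cxcl12 and 5923 CPM of Lpl. VCAM1+ cell 8 held 1395 CPM of Cebpd and 46.4 CPM of Cebpb, with 25394 CPM of Fos. CAR markers ranged from 0.255 to 59682 CPM per cell in this gate, and fibroblast markers reached 52059 CPM.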

How the data were processed

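Each cell is 1 Smart-seq2 library. Kallisto 0.43.0, R 3.5.1 and build mm10 are named in the submitters' processing notes; which annotation was used is not given in the sources. The authors deposited expected counts (estimated, not normalised; 0 values were not whole). Gene numbers per cell were deposited as a count, and the sorter's fluorescence was deposited as linear intensity; 36 columns of per-cell values were not used.

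Counts were summed by gate and plate and scaled to CPM; sums under 3 counts were raised to 3 for log2 ratios. The filter on low counts (a sum of 10, and 5 cells with a count) kept 14063 of 16580 genes. Intervals are exact Poisson, Clopper-Pearson or binomial splits of 2 sums, at 95%; reads are not independent molecules. Clustering (scanpy 1.11.5, igraph 0.11.9) left out 116 genes and used 2000 variable genes, 15 components, 10 neighbours and resolution 1. Exonic lengths came from GENCODE vM21, where 16526 symbols matched. Of 227 listed genes 191 were in the table.

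Named genes were the members, their 4 partners, the 4 most alike genes per member (counted in at least 25% of cells; mitochondrial, ribosomal, predicted and Rik genes left out) and up to 6 most abundant genes per list. Not every gene that the rule names is reported here. Nfil3, Tef, Atf5, Dbp, Hlf, Rxra, Nr1h3, Zfp467, Srebf1, Plin1, Plin2 and the single cells were picked after their values were seen, and Vcam1 and Ptprc check the sort. The members and lists were chosen with earlier results of these data known. Other settings tried were edgeR 4.0.16 (TMM) and DESeq2 1.42.0 scaling, a mean over cells, thinning, leaving out plates or cells, a pseudocount of 10 in place of 1 CPM, no filter, and resolutions 0.6 and 1.4. The steps were tested on simulated data.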

Additional observations from a re-analysis of the deposited data

Results flagged for a closer look

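Among the 9 VCAM1+ cells 1 cell stood far from the others for 4 of the 5 members: Cebpa in cell 7 (751 CPM; next 271), Cebpb in cell 8 (46.4 CPM; next 5.11), Cebpd in cell 8 (1395 CPM; next 235) and Pparg in cell 7 (715 CPM; next 0). A cell was marked where its gap to the next cell was over 0.493 of the range. That limit is made for normal values, of which it marks about 1 group in 20. These values, many of them 0, are not of that kind, so the rate here is not known. A gene counted in few cells is marked more easily, and Pparg, counted in 1 cell, is marked at any level. The 9 cells were also mixed, with 4 CAR-like, 4 endothelial-like and 1 osteolineage-like, and cells 7 and 8 were CAR-like.

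The 3 cells whose title and gate label disagree also carried members, in data that no comparison used. Cebpb was at 49.3, 1595 and 32.4 CPM in unassigned cells 1, 2 and 3, so that cell 2 was the second highest Cebpb cell of all 91. Cebpd was at 485, 453 and 320 CPM in the same order. Cebpa was at 228 CPM in cell 1 and 147 CPM in cell 3. Cebpg was at 205 CPM in cell 2. Pparg was at 3.13, 203 and 2.86 CPM.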

How the results depend on the processing

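All values are log2 ratios of CD61+ to CD61- unless named otherwise. TMM and DESeq2 scaling left each member within its counting interval. Leaving out 1 plate or 1 cell gave -1.22 to 0.019 for Cebpa, -6.55 to -4.71 for Cebpb, -2.30 to -1.14 for Cebpd, -1.98 to -1.05 for Cebpg and -1.15 to 0.48 for Pparg; Cebpa and Pparg changed direction in this range, and Cebpb, Cebpd and Cebpg did not. The mean of CPM over cells gave -0.29 for Cebpa, -4.82 for Cebpb, -1.44 for Cebpd, -1.31 for Cebpg and -0.20 for Pparg. Thinned cells gave -0.36 for Cebpa, -1.33 for Cebpd, -1.31 for Cebpg and -0.58 for Pparg; the same cells at full depth gave -0.51 for Cebpa, -6.22 for Cebpb and -0.14 for Pparg. Without the 5 cells of fewer than 2500 genes the values were -0.52 for Cebpa, -1.49 for Cebpg and -0.088 for Pparg. Settings added after seeing the data were the removal of the endothelial-like cluster (-0.38 for Cebpa, -1.56 for Cebpd, -1.05 for Pparg) and the CAR-like cells alone (0.29 for Cebpa, -5.22 for Cebpb, -1.79 for Cebpd, -1.09 for Cebpg, 0.064 for Pparg). The cause of these shifts was not tested.

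Among cells with counts of both genes, the rho of Pparg was -0.062 with Adipoq and -0.12 with Cxcl12, against 0.50 and 0.49 over all 88 cells. These were the 2 called relations that changed sign. Of the other values of rho under other settings 128 stayed on their side of 0.4 in size, 37 no longer reached it and 13 newly reached it; some values that were below 0.4 over all cells changed sign. At resolution 0.6, with 3 clusters, 64 of 88 cells kept their cluster name, and at 1.4, with 8 clusters, 79 did; at 0.6 the share of cells with Cebpa was 87.8% in CAR-like and 32.3% in osteolineage-like cells. Without the filter 7 list counts changed by over 1.5 times: PPAR and RXR genes lower (5 in place of 3), inhibitors higher (1 in place of 0), acute phase genes higher (2 in place of 1), endothelial genes higher (9 in place of 5), myeloid genes higher (5 in place of 2) and lower (6 in place of 1), and B lineage genes lower (3 in place of 1). No paired analysis was possible because cell numbers only name cells within a gate, no animal is named and no test was run. Counting intervals do not cover differences between animals.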
